A study of Mus musculus with 18 samples.

Results

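The promoters described here belong to the mouse genes named Zfp followed by a number, most of which encode proteins that grip DNA with zinc fingers. They were taken as every promoter window whose gene name starts with Zfp and a digit, with identical windows kept once. That gave 380 windows of 367 gene names among 26065 promoter windows in all, and chromosome 7 held 89 of them, chromosome 17 held 44 and chromosome 13 held 38. Each window is centred on an annotated start of transcription, with 1 kb on both sides, in the mouse build mm9. Most, 354 of them, were 2000 bases long, and the longest of the other 26 had 4503 bases. The name also takes in 4 entries that are opposite-strand transcripts or pseudogenes by their suffix: Zfp133-ps, Zfp652os, Zfp85os and Zfp862-ps. In all, 12 names had several windows, 25 between them, and 37 windows overlapped the window of another gene, 10 of them another Zfp gene. Overlapping windows share reads.

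Accessibility was measured by ATAC-seq, in which the Tn5 transposase cuts open chromatin and tags it for sequencing, in 18 libraries from C57BL/6J mice aged 2 to 3 months. Nuclei came from the central amygdala (CeA), a relay for learned fear, or from the prefrontal cortex, here called cortex. Somatostatin-positive (SOM+) nuclei were sorted on a nuclear GFP (H2B-GFP) carried by somatostatin cells and have a WT genotype label. They form 4 groups of 2 libraries: CeA control, CeA fear-conditioned, cortex control and cortex fear-conditioned. Bulk nuclei were sorted on a DNA stain (NucBlue) without a cell type gate and form 4 groups: CeA Erbb4 KO (3 libraries), CeA WT (2), cortex Erbb4 KO (3) and cortex WT (2). The KO removes Erbb4, a neuregulin receptor, in SOM+ cells alone, so most nuclei of a KO library keep the gene. For the bulk WT libraries the genotype field also names the KO, and WT was read from their titles. Each library held 50000 nuclei. The sort is described as yielding technical replicates, and p values measure the spread between these libraries. In each SOM+ group, however, replicate 1 is labelled male and had Y-linked counts, and replicate 2 is labelled female and had 0. Within SOM+ groups the spread therefore includes differences between animals and sexes. The same holds for KO 2, with 0 Y-linked counts, against KO 1 and KO 3. In bulk WT groups, where both libraries had Y-linked counts, the spread may be technical. SOM+ and bulk libraries differ in cell type, in the sort and in the mouse line together, and these cannot be told apart.

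Zinc finger genes form the largest family of DNA-binding proteins in mammals. Many carry a KRAB domain, which recruits the corepressor Trim28 (KAP1) and the histone methyltransferase Setdb1, and silence transposable elements in this way. The KRAB genes arose by repeated tandem duplication and lie in clusters, whose promoters share ancestry and sequence. Other members stand alone, are conserved in vertebrates and take part in neural development, imprinting or RNA decay.

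The promoter sequences of 7 genes are shown because the comparisons below turn on their windows. Each is the RefSeq promoter of build GRCm38.p6, 250 bases before to 50 bases after the annotated start, written 5′ to 3′ on the gene's strand. The counting windows are in mm9, so the coordinates of the sequences and of the windows belong to different builds. Zfp759 (chr13:67127978-67128277, plus strand), Zfp566 (chr7:30090461-30090760, minus), Zfp260 (chr7:30094826-30095125, plus), Zfp60 (chr7:27731159-27731458, plus) and Zfp81 (chr17:33358829-33359128, minus) were more accessible in SOM+ than in bulk nuclei. Zfp768 (chr7:127345265-127345564, minus) was less accessible in CeA than in cortex SOM+ nuclei, and Zfp329 (chr7:12818811-12819110, minus) more. Capitals mark exact matches on either strand to the motifs searched: CCAAT, the GC box GGGCGG, the ETS site CCGGAAGT, the YY1 site AAGATGGC, the NRF1 site GCGCATGC, the ZNF143 site ACTACAAT, the cAMP response element TGACGTCA, TATAAA, and the letters ACATTTCCC.
Zfp759: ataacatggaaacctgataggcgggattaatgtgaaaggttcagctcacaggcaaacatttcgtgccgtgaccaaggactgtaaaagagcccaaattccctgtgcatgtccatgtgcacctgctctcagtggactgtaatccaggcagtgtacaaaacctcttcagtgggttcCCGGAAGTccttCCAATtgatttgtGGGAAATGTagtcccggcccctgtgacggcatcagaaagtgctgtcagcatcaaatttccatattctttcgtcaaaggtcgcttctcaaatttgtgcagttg
Zfp566: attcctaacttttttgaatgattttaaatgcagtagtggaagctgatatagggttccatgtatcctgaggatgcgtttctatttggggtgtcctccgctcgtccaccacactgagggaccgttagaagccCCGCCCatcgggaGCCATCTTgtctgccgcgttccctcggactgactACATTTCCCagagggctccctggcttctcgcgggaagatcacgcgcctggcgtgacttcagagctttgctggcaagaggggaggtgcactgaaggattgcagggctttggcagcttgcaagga
Zfp260: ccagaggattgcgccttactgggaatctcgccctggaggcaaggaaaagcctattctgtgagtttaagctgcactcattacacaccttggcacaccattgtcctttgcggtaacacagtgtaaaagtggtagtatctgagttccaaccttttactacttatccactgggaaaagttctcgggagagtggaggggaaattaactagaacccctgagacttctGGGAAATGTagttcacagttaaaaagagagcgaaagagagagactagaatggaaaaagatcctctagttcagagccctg
Zfp60: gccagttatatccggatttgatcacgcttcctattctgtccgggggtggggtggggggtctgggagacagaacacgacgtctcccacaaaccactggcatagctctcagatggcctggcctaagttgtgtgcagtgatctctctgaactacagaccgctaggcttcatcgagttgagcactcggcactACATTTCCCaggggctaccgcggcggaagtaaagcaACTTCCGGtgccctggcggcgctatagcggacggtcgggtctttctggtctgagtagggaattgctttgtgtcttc
Zfp81: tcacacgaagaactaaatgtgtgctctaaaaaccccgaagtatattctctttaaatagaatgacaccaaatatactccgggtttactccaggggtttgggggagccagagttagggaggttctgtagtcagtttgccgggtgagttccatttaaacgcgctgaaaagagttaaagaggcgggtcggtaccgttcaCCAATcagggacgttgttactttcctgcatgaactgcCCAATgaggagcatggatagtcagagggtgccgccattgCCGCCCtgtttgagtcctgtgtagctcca
Zfp768: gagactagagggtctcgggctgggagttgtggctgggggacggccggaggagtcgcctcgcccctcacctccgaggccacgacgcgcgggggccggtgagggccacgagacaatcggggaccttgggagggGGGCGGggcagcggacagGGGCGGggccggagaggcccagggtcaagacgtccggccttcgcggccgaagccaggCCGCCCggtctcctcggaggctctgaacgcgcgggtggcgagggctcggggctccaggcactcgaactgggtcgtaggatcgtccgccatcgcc
Zfp329: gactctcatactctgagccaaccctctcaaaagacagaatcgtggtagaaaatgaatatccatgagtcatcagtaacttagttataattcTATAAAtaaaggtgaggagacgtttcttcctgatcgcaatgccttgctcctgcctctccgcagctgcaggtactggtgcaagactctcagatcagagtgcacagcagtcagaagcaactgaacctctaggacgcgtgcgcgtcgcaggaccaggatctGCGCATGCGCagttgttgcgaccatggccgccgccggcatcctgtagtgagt
The letters ACATTTCCC, on one strand or the other, lie in the promoters of Zfp759, Zfp566, Zfp260 and Zfp60 and not in those of Zfp81, Zfp768 and Zfp329. The Zfp566 and Zfp260 starts are neighbours that point away from each other. The Zfp768 promoter is the richest of the 7 in G and C, with 74.0% of its bases and 35 CpG sites, against 45.7% and 5 CpG sites in that of Zfp260.

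Promoter counts per library ran from 2648959 to 14668694 in SOM+ and from 2751769 to 7939962 in bulk nuclei. Cortex SOM+ libraries (9452310 or more) were deeper than CeA SOM+ libraries (7727263 or fewer), with no overlap. Levels are given as CPM (promoter reads in a window, scaled to a common library size) after TMM scaling, and a count of 0 (3 counts taken as its limit) allows between 0.234 and 0.995 CPM on this scale, depending on the library, counting error only. The ratio of the median ribosomal protein window, open in every cell, to the median olfactory receptor window, closed in brain, was 17.4 to 35.3 in CeA SOM+, 53.8 to 73.5 in cortex SOM+ and 9.57 to 18.9 in bulk libraries. This ratio of open to closed promoters therefore moves with both main comparisons, and its part in them was not tested. Y-linked windows went against the labelled sex in 4 bulk libraries. CeA KO 2 and cortex KO 2, labelled male, had 0 Y-linked CPM, and CeA WT 1 and cortex WT 1, labelled female, had 43.2 and 99.5 CPM. Whether the KO and WT labels of these 4 libraries hold, or are exchanged along with the sex labels, was not tested. KO and WT below therefore mean the libraries so labelled, and the counts over all Zfp windows that rest on bulk libraries are also given without these 4. Leaving them out keeps WT 2 as the only WT library of each region, so counts can fall through the loss of libraries alone. The Erbb4 promoter window measured 26.0 to 45.8 CPM in bulk and 15.9 to 27.3 CPM in SOM+ libraries. It overlapped between KO and WT in each region, and a promoter window outside the deleted part does not check the deletion.

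Zfp promoters were open in every library. The median Zfp window averaged 44.8 CPM over the 18 libraries against 19.9 CPM for all windows, and 338 of 380 (88.9%) reached 10 CPM against 62.8% of all windows. Highest were Zfp869 (228 CPM), Zfp143 (221 CPM), an activator of promoters for small nuclear RNA and many protein genes, and Zfp277 (220 CPM), whose window overlaps that of Dock4. At the other end, both Zfp781 windows had 0 counts in all 18 libraries, and 1 Zfp433 window lay between 0 and 0.472 CPM. Of the 380 windows, 371 passed the filter on low counts, and the other 9 belong to Zfp600, Zfp534, Zfp433, Zfp781, Zfp97, Zfp955a and Zfp955b. Zfp433 and Zfp781 have 2 windows each there.

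Zfp windows drew a larger share of the promoter counts in SOM+ than in bulk nuclei. In CeA SOM+ the share was 2.20% and 2.10% in the control and 2.18% and 2.12% in the fear-conditioned libraries, and in cortex SOM+ 2.01%, 2.08%, 2.06% and 2.07% in the same order. The bulk libraries lay between 1.62% and 1.71%, so the 2 kinds of nuclei did not overlap. The median Zfp window was 43.7 to 55.7 CPM in SOM+ and 29.0 to 34.3 CPM in bulk libraries, while the median of all windows was 16.9 to 19.5 CPM in the 18 libraries.

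**Figure D1:**
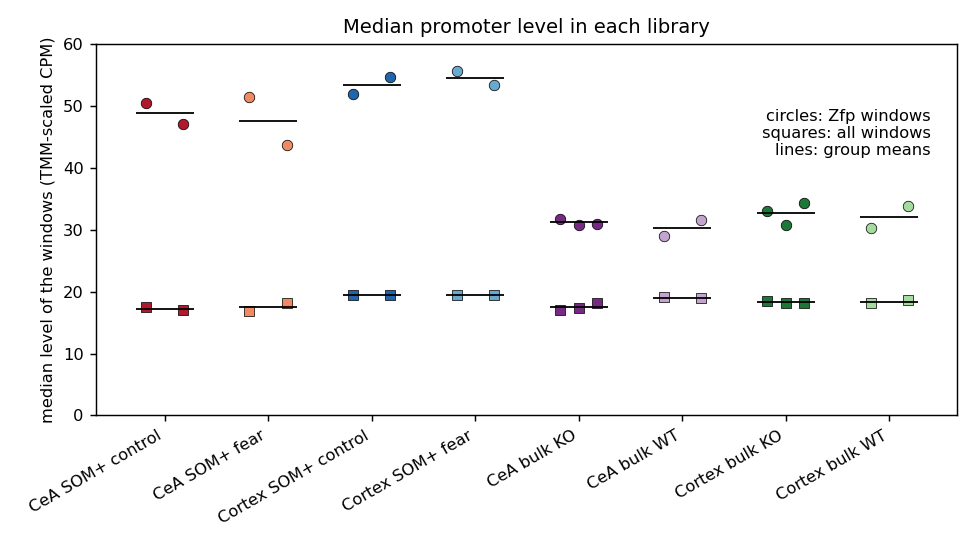
Median Zfp window and median of all windows per library, in TMM-scaled CPM, for the 8 groups. Circles are Zfp medians, squares medians of all windows, 1 of each per library, and lines are group means. The Zfp medians of SOM+ libraries (43.7 to 55.7 CPM) all lie above those of bulk libraries (29.0 to 34.3 CPM), and the medians of all windows stay between 16.9 and 19.5 CPM.

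Of the 380 windows, 162 fell into 16 clusters, each a run of windows at most 500 kb apart with at least 5 gene names. They are called here by chromosome and a letter in order along it. The largest were 13A (chromosome 13, 67161107 to 67915752, 25 windows), 17A (chromosome 17, 21144905 to 23737454, 20 windows), 7D (chromosome 7, 24865916 to 26007443, 15 windows) and 7F (chromosome 7, 30552571 to 30955746, 15 windows). Chromosome 7 carried 8 of them, among them 7H (134375957 to 135022214, 10 windows), 7E (28515428 to 29165247, 7 windows), 7A (4865819 to 5004133, 6 windows), 7B (6106574 to 6337027, 6 windows) and 7C (13006841 to 13564196, 7 windows). The average window was most accessible in 8A (124 CPM), which holds Zfp869, and least in 7E (24.1 CPM). Levels within a cluster differed widely. In 7F, Zfp566 stood highest and Zfp74 (3.13 to 11 CPM over the 18 libraries) lowest, and in 13A, Zfp712 stood highest and the second Zfp708 window (1.48 to 12.6 CPM) lowest. The other 218 windows lay outside clusters.

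In SOM+ control against bulk WT nuclei, averaged over the 2 regions, Zfp promoters were mostly more accessible in SOM+. Of 371 tested, 215 (58.0%) were higher and 50 (13.5%) lower at an adjusted p under 0.05 by edgeR's quasi-likelihood test, which is what called means below. Among all windows 30.6% were called higher and 30.6% lower. The median log2 difference was 0.56 for Zfp windows and -0.07 for all windows. Values of the 4 SOM+ control and the 4 bulk WT libraries did not overlap at 141 of the 215 higher and 25 of the 50 lower windows. That is 38% and 6.74% of the Zfp windows tested, against 19.3% and 18.1% of all windows.

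The scaling bears on these counts. With total counts as the scale the median of all windows moved to -0.27, with 181 Zfp windows higher and 78 lower. With cyclic loess it was 0.05, the Zfp median fell to 0.35, and 187 were higher and 82 lower. Without the 4 libraries at odds with their sex label, 169 were higher and 35 lower, with a median of 0.49.

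Windows inside and outside clusters parted in this comparison. Within clusters 128 of 160 tested windows were higher and 2 lower, with a median of 0.96, and outside them 87 of 211 were higher and 48 lower, with a median of 0.19. In 13A all 25 windows were called higher (median 1.39), in 7F all 15 (1.79), in 17B all 11 (1.44) and in 7H all 10 (1.32). In 7E 6 of 7 were higher, with a median of 1.98, the exception being Zfp36, which is no KRAB gene but codes for an mRNA decay factor. By contrast, none of the 6 windows of 11A (median -0.01) or the 5 of 7G (0.06) was called, 1 of 6 was in 7B (0.12), and 17A was divided, with 10 higher and 2 lower of 20 (0.30). The medians of 7B, 7G and 17A fall below 0 with cyclic loess (-0.14, -0.12 and -0.06). In 7A the 6 calls fell to 1 in the setting that left fewest and to 3 without CeA SOM+ control 2, cortex SOM+ control 1 or CeA WT 2, and up to 4 windows of 11A were called lower in other settings. Without the 4 libraries at odds with their sex label 22 windows of 13A, 14 of 7F, 11 of 17B, 10 of 7H, 6 of 7E and 6 of 17A were called higher.

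Of the windows of other genes inside the cluster spans 72 of 169 were called higher and 11 lower, with a median of 0.44, and the clusters differed. In 13A all 4 such windows were higher (1.65), among them Rsl1 and Rslcan18, which are KRAB zinc finger genes under another name. In 7H 19 of 27 were (1.09), in 7E 14 of 16 (1.16), in 17B 6 of 12 (0.98) and in 7D 13 of 36 (0.09). In 7G none was higher and 6 of 12 were lower (-0.85), and in 11A none was higher and 3 of 7 were lower (-0.56).

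**Figure D2:**
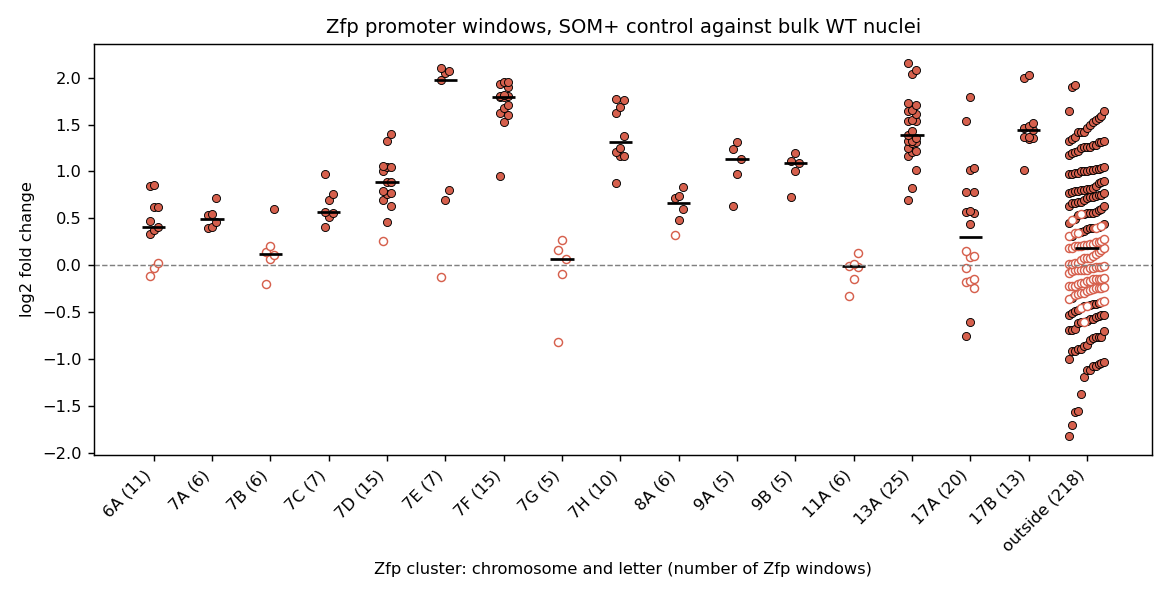
Log2 difference of SOM+ control against bulk WT nuclei for each tested Zfp window, by cluster and outside clusters. Filled points were called (adjusted p under 0.05), open points were not, and lines are medians. All windows of 13A, 7F, 17B and 7H lie above 0, those of 11A and 7G scatter around it, and windows outside clusters spread to both sides.

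The windows with the smallest p among those higher in SOM+ were all cluster members. Zfp759, in 13A (chromosome 13, 67228164 to 67230163), measured 73.4 and 60.9 CPM in CeA and 81.0 and 107 CPM in cortex SOM+ control libraries. The bulk WT values were 14.3, 14.6, 22.3 and 29.7 CPM. The SOM+ libraries all stood above the bulk libraries, with means of 80.4 ± 19.3 and 20.2 ± 7.35 CPM (SD, n = 4 each). The log2 difference was 2.04 (SE 0.16, adjusted p = 7.8e-13). Zfp566, in 7F (chromosome 7, 30874530 to 30876529), measured 138, 119, 163 and 177 CPM in SOM+ control against 43.9, 38.8, 35.8 and 33.8 CPM in bulk WT libraries, regions in the same order. The log2 difference was 1.95 (SE 0.15, adjusted p = 7.8e-13), again without overlap.

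The next in line behaved alike. Zfp260, which starts next to Zfp566, measured 83.9, 71.7, 104 and 130 CPM against 23.2, 31.8, 25.8 and 22.6 CPM, a log2 difference of 1.90 (SE 0.15). Zfp60, in 7E (chromosome 7, 28515428 to 28517427), measured 66.5, 74.4, 86.6 and 104 CPM against 18.7, 24.2, 19.7 and 14.6 CPM, a difference of 2.10 (SE 0.17). Zfp81, in 17B (chromosome 17, 33494824 to 33496823), measured 99.4, 79.2, 101 and 122 CPM against 24.3, 25.2, 25.2 and 22.8 CPM, a difference of 2.03 (SE 0.16). In all 3 the lowest SOM+ library stood above the highest bulk library. Zfp27, also in 7F, had a log2 difference of 1.95 (SE 0.16), but its window overlaps those of Zfp383 and Mir7668.

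The windows with the smallest p among those lower in SOM+ lay outside clusters. Zfp521, a factor of early neural differentiation (chromosome 18, 14130243 to 14132242), measured 35.9, 35.3, 30.6 and 27.9 CPM in SOM+ control against 69.2, 95.5, 65.3 and 108 CPM in bulk WT libraries. The log2 difference was -1.37 (SE 0.17, adjusted p = 1.5e-08), and the groups did not overlap. Zfp703, a relative of the striatal factor Zfp503, measured 55.5, 65.7, 47.4 and 38.0 CPM against 87.6, 102, 130 and 157 CPM, a difference of -1.19 (SE 0.15). Zfp488, a partner of Olig2 in oligodendrocyte differentiation, measured 3.57, 5.39, 5.18 and 2.60 CPM against 17.8, 16.2, 10.2 and 11.2 CPM, a difference of -1.70 (SE 0.28). It was low in both and lowest in SOM+ nuclei. Zfp518b (-1.12), the Zfp423 window at 90482495 to 90484494 on chromosome 8 (-1.07) and Zfp281 (-0.90) completed the lower windows named by p.

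**Figure D3:**
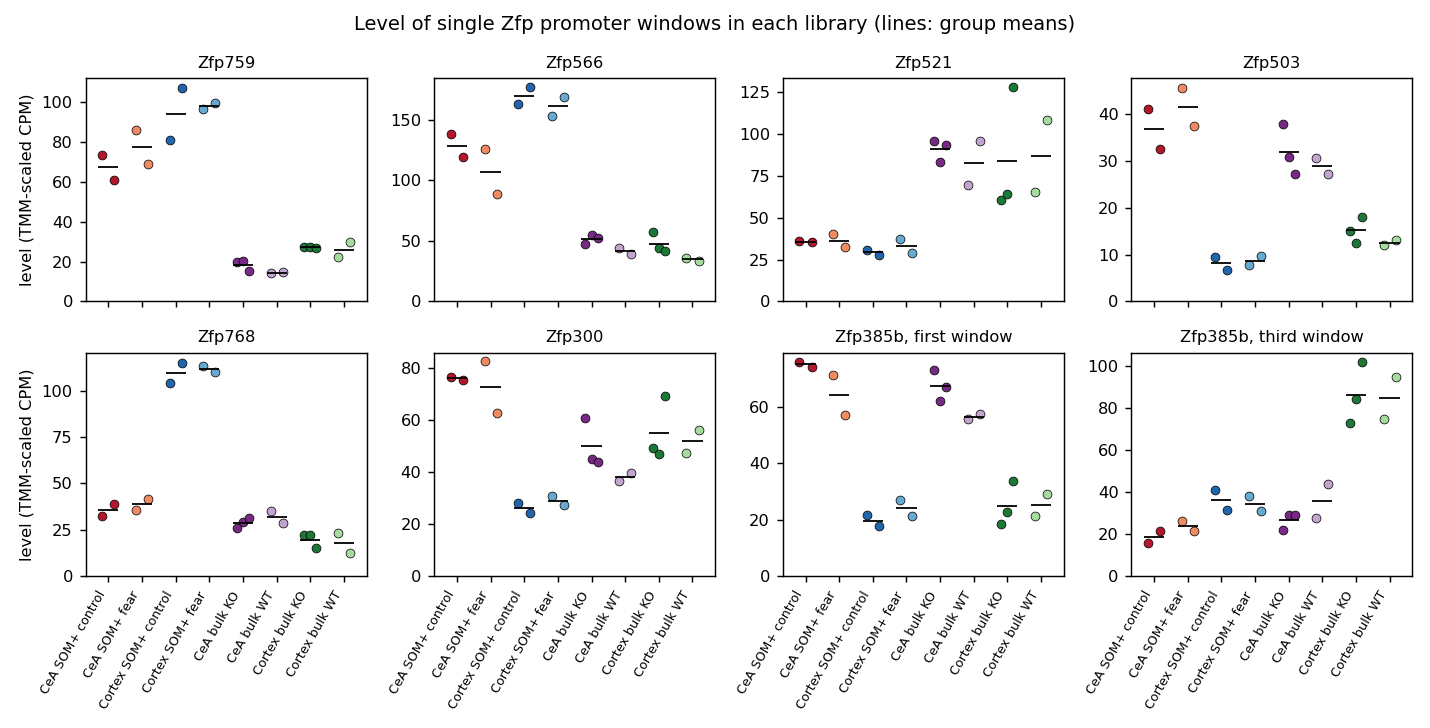
TMM-scaled CPM of 8 windows in each of the 18 libraries, by group, each point 1 library and each line a group mean. Zfp759 and Zfp566 stand higher in all SOM+ libraries, Zfp521 lower, Zfp503 and Zfp300 differ by region, Zfp768 is high in cortex SOM+ libraries (104 to 115 CPM), and the first and the third window of Zfp385b run in opposite directions between the regions.

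Members grouped by role differed in direction. In a list of neural Zfp genes, 12 of 18 windows were lower in SOM+ and 1 higher, with a median of -0.64. That is 66.7% and 5.56%, against 30.6% and 30.6% of all windows. Lower were Zfp521, Zfp703, both Zfp423 windows, Zfp608 (-0.92), Zfp804b (-1.12), Zfp804a (-0.78), whose human homologue lies at a schizophrenia risk locus, Zfp462 (-0.70), Zfp618 (-0.58), Zfp189 (-0.55), Zfp365 (-0.54) and the third Zfp385b window (-1.07). Higher was Zfp609, a partner of the cohesin loader Nipbl, with 88.7, 93.2, 139 and 148 CPM in SOM+ control against 41.6, 32.8, 41.0 and 37.8 CPM in bulk WT libraries (log2 difference 1.57, SE 0.14). Not called were Zfp503 (-0.15), Zfp536 (-0.15), Zfp704 (-0.13) and the other Zfp385b windows (0.02 and -0.01).

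In a list of members known for imprinting, retroelement silencing or pluripotency, all 11 windows were called, 7 higher and 4 lower, with a median of 0.99. That is 63.6% and 36.4%, against 30.6% and 30.6% of all windows, so the lower share was near that of all windows. Higher were Zfp445 (1.64), which guards imprints, Zfp809 (1.20), which recognises murine retroviral DNA, Zfp568 (1.62), a repressor of a placental Igf2 transcript, Zfp932 (0.99), Zfp93 (0.88) and both Zfp708 windows (1.30 and 1.66). Lower were Zfp57 (-0.85), the other imprint guardian, Zfp281 (-0.90), Zfp42 (-1.82), a pluripotency marker also called Rex1, and Zfp352 (-1.55). Zfp42 and Zfp352 stayed under 7 CPM in all 18 libraries. Their values in SOM+ control libraries were 2.04, 0, 1.62 and 0.709 CPM for Zfp42 and 2.04, 2.42, 0.324 and 0.945 CPM for Zfp352, which is near the limit of detection.

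Of the members that bind RNA 3 were higher and 3 lower of 8, near the 30.6% and 30.6% of all windows. Zfp106 (1.92), an RNA-binding protein needed by motor neurons, Zfp346 (1.32), a binder of double-stranded RNA, and Zfp871 (1.35) were higher. Zfp36l1 (-1.03), Zfp36l2 (-0.53) and Zfp36l3 (-1.04), which bind AU-rich mRNA and speed its decay, were lower, and Zfp36 (-0.13) and Zfp385a (-0.01) were not called.

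Other families give the setting, where all windows gave 30.6% higher and 30.6% lower. Of Zbtb windows 24 of 44 were higher and 4 lower (median 0.42), of Klf and Sp windows 5 and 8 of 26 (0.03), of Zscan and Zkscan windows 11 and 5 of 23 (0.25). Of the silencing machinery on which KRAB proteins act, 17 of 36 windows were higher and 4 lower (0.36). Ribosomal protein windows, with no tie to zinc fingers, were higher at 51 and lower at 12 of 83 (0.56), the same median as that of the Zfp windows. Olfactory receptor windows, closed in brain, were higher at 2 and lower at 667 of 1116 (-1.22). Zfp42 and Zfp352, near the limit of detection, moved the same way as these. The part of this split between open and closed windows in the Zfp values was not tested. Marker windows moved as well, except those of microglia. Astrocyte windows summed to 146 to 188 CPM in SOM+ and 263 to 398 CPM in bulk libraries (11 of 14 lower in SOM+), oligodendrocyte windows to 149 to 176 and 280 to 446 CPM (10 of 13), and glutamatergic windows to 230 to 304 and 320 to 788 CPM (11 of 13). GABAergic windows were higher at 10 of 12 and lower at 1, with sums of 648 to 894 and 250 to 742 CPM. Microglial windows were lower at 4 of 12 (33.3%), near the share of all windows, and higher at 1. Their sums of 99.8 to 116 and 97.9 to 151 CPM overlapped. No marker window was at 0 in any library. The part of these cells in the Zfp differences was not tested, and in bulk nuclei fewer cells of a type and less signal per cell cannot be told apart.

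The same comparison was then made within each region. In CeA 163 of 371 Zfp windows were higher in SOM+ control than in bulk WT and 16 lower (all windows 13.7% and 9.58%), with a median of 0.50. Without the 4 libraries at odds with their sex label the counts were 95 and 6. The lower count was 6 without CeA WT 1 and 7 without CeA WT 2, CeA SOM+ control 1 or CeA SOM+ control 2. In cortex 171 were higher and 68 lower (all windows 31.5% and 30.6%), with a median of 0.45. With cyclic loess the cortex median was 0.12 against 0.06 for all windows, with 153 higher and 106 lower, and with total counts 152 were higher and 96 lower. Leaving out the 4 libraries gave 137 higher and 56 lower.

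In SOM+ nuclei, CeA against cortex, Zfp promoters went both ways, and in some clusters all windows moved together. Of 371 windows 98 (26.4%) were higher in CeA and 126 (34%) lower, where all windows gave 21.1% and 27.1%. Inside clusters 50 of 160 were higher and 51 lower, and outside them 48 of 211 were higher and 75 lower. The medians were -0.06 for Zfp and 0.04 for all windows. The balance turned with the scaling: with total counts 138 were higher and 86 lower (median 0.16, all windows 0.26), and with cyclic loess 131 and 81 (median 0.13, all windows -0.02). Olfactory receptor windows, closed in brain, were higher in CeA at 315 of 1104 and lower at 3, with a median of 0.88, and their part in the Zfp values was not tested. GABAergic marker windows summed to 648 to 756 CPM in CeA and 811 to 894 CPM in cortex SOM+ libraries, with 3 of 12 windows higher and 6 lower. Glutamatergic windows summed to 279 to 304 and 230 to 289 CPM, with 3 of 13 higher and 5 lower. The part of these markers was not tested either.

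Cluster 7H was lower in CeA throughout. All 10 windows were called, with a median of -1.12 and differences from -1.53 to -0.78. Their mean level was 35.1 and 41.2 CPM in CeA control, 38.9 and 35.5 CPM in CeA fear-conditioned, 78.4 and 93.9 CPM in cortex control and 78.3 and 86.8 CPM in cortex fear-conditioned libraries. Every cortex library stood above every CeA library. Of 27 windows of other genes in the span, 20 were lower too and 1 higher (median -0.90), among them Setd1a (-1.10).

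The opposite held for the clusters near the start of chromosome 7 and for 17A. All 6 windows of 7A (median 0.75), all 6 of 7B (0.99) and all 7 of 7C (0.78) were higher in CeA, as were 16 of 20 in 17A (0.69). The mean level of 17A windows was 41.8, 35.4, 42 and 37.5 CPM in CeA and 23.8, 24.4, 28 and 25.9 CPM in cortex SOM+ libraries, with no overlap. Windows of other genes moved the same way by more: 5 of 5 in 7A (1.12), 4 of 4 in 7B (1.59), 9 of 9 in 7C (1.65) and 16 of 17 in 17A (1.64). Those in 7C and 17A include vomeronasal receptor genes (Vmn1r and Vmn2r), which like olfactory receptors are not used in brain. The calls in 7A, 7B, 7C and 7H stayed at 6, 6, 7 and 10 with DESeq2, the other scalings, no filter and the replicate block, and without any 1 library.

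The remaining clusters moved less. In 8A all 6 windows were lower in CeA (median -0.60), in 7F 11 of 15 (-0.44), in 7E 5 of 7 (-0.42), and in 7D 8 were higher and 2 lower of 15 (0.47). The count in 7F fell to 6 and that in 7E to 2 in the setting that left fewest. Without cortex SOM+ control 2 they were 7 and 2, and without cortex SOM+ fear 2 they were 7 and 3. Cluster 13A had 1 higher and 6 lower of 25. The lower count was 1 without cortex SOM+ control 2, 2 without CeA SOM+ control 2 and 3 without CeA SOM+ fear 2 or cortex SOM+ fear 2. Its median of -0.09 turned to 0.18 with cyclic loess and 0.13 with total counts.

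**Figure D4:**
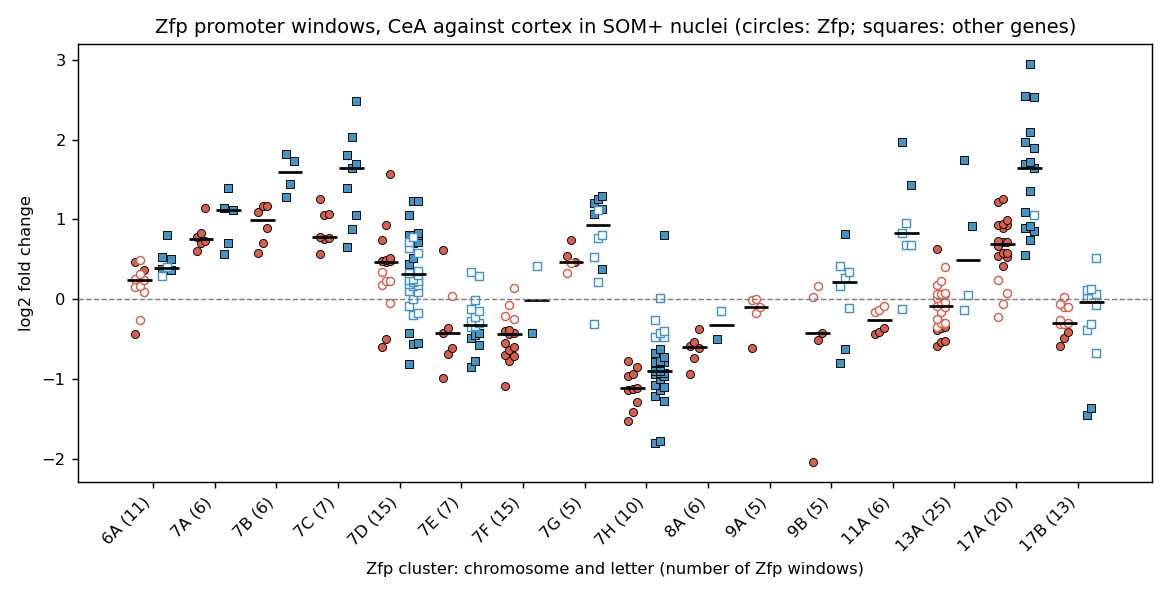
Log2 difference of CeA against cortex in SOM+ nuclei for each tested window in the 16 cluster spans, Zfp windows as circles and windows of other genes as squares. Filled symbols were called (adjusted p under 0.05), open symbols were not, and lines are medians. Zfp windows of 7A, 7B and 7C all lie above 0 and those of 7H and 8A all below.

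Single windows reached larger differences. Zfp503 (Nolz1), a regulator of striatal and other ventral forebrain neurons (chromosome 14, 22807824 to 22809823), measured 41.2, 32.6, 45.7 and 37.5 CPM in CeA SOM+ libraries. In cortex SOM+ libraries it measured 9.60, 6.73, 7.72 and 9.74 CPM. CeA stood above cortex in all of them (log2 difference 2.27, SE 0.18, adjusted p = 1.2e-35). Zfp300 (chromosome X, 20665356 to 20667355) measured 76.6, 75.4, 82.7 and 62.8 CPM in CeA against 28.3, 24.3, 30.9 and 27.2 CPM in cortex (1.48, SE 0.15). Zfp182, its neighbour on the X chromosome, measured 37.9, 34.2, 40.0 and 29.6 CPM against 15.3, 13.8, 14.2 and 14.3 CPM (1.35, SE 0.17). Both were thus clearly parted by region. Zfp329 in 7C (1.25), Zfp40 in 17A (1.22) and the first Zfp385b window (1.72) were the other windows named by p.

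Lower in CeA was Zfp872, in 9B (chromosome 9, 21991610 to 21993609), with 10.5, 8.08, 6.79 and 9.86 CPM against 38.4, 38.7, 29.9 and 41.5 CPM in cortex. Its log2 difference was -2.04 (SE 0.18, adjusted p = 3.3e-26). Zfp768, in 7H (chromosome 7, 134487829 to 134489828), measured 32.3, 39.1, 35.8 and 41.8 CPM against 104, 115, 113 and 110 CPM (-1.53, SE 0.16). Zfp346, outside clusters, measured 51.9, 45, 53.8 and 39.1 CPM against 122, 132, 99.6 and 115 CPM (-1.24, SE 0.15). No CeA library reached a cortex library at these 3. Zfp688 (-1.42) and Zfp764 (-1.29) of 7H and Zfp105 on chromosome 9 (-1.40) followed. Of the neural list, 5 of 18 windows were higher in CeA and 3 lower, not far from the 21.1% and 27.1% of all windows. The lower ones were Zfp536 (-1.34), which holds back neuronal differentiation, Zfp609 (-0.64) and the third Zfp385b window (-0.70).

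In bulk nuclei fewer Zfp promoters differed by region. Of 371, 27 were higher in CeA and 59 lower, where all windows gave 6.9% and 9.98%, with medians of -0.10 and 0.03. These counts depend on single libraries. Without cortex KO 1 they were 47 and 91, and without CeA WT 2 or without cortex WT 2 they were 5 and 9. Without CeA WT 1 they were 11 and 14, and without cortex WT 1 they were 6 and 20. CeA KO 2 (15 and 37 without it), CeA KO 3 (17 and 41) and cortex KO 2 (13 and 59) also moved the higher count by more than 1.5 times. Without the 4 libraries at odds with their sex label 2 were higher and 5 lower, and with total counts the split was 38 and 43. Neuron type markers moved with region: glutamatergic windows summed to 320 to 413 CPM in CeA and 621 to 788 CPM in cortex bulk libraries, and GABAergic windows to 520 to 742 and 250 to 295 CPM. Their part in the Zfp values was not tested.

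Zfp385b shows the region difference within 1 gene, through 3 start sites on chromosome 2. Its first window (77356724 to 77358723) measured 73.0, 62.1 and 66.9 CPM in CeA KO and 55.7 and 57.4 CPM in CeA WT libraries. In cortex it measured 18.7, 22.7 and 33.8 CPM in KO and 21.4 and 29.3 CPM in WT libraries, a log2 difference of 1.33 (SE 0.15, adjusted p = 3.1e-06). The third window (77653874 to 77655873) went the other way, with 22.2, 29.0, 29.1, 27.8 and 43.8 CPM in CeA and 73.1, 84.7, 102, 75.2 and 95.2 CPM in cortex (-1.47, SE 0.14, adjusted p = 2.8e-07). At neither window did the regions overlap. In SOM+ nuclei the first was also higher in CeA (1.72) and the third lower (-0.70). The window between them, at 77540330, differed by 0.33 in bulk, which was not called, and by 0.42 in SOM+ nuclei. Against bulk WT, SOM+ control nuclei were lower at the third (-1.07) and not called at the first (0.02) or the one between (-0.01).

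Zfp503 was higher in CeA bulk nuclei as well, with 38.0, 30.8, 27.3, 30.6 and 27.2 CPM against 15.1, 12.5, 18.0, 12.1 and 13.1 CPM in cortex (1.16, SE 0.16). Zfp654 (chromosome 16, 64785148 to 64787147) was lower, with 7.03, 9.42, 10.6, 8.38 and 11.3 CPM against 27.2, 25.7, 37.5, 32.6 and 27.0 CPM (-1.67, SE 0.19). Both were parted by region without overlap and kept their calls without the 4 libraries. Zfp597 (0.89), Zfp648 (0.97), Zfp652os (0.59) and Zfp664 (0.58) were higher and Zfp54 (-0.92) and Zfp493 (-0.85) lower, and these 6 lost their calls without the 4. Zfp712 (-0.91) and Zfp760 (-1.03), the other lower ones named by p, did not. By cluster, 14 of 25 windows of 13A (median -0.47) and 8 of 20 of 17A (-0.40) were lower in CeA, and 3 of 10 of 7H were higher (0.43). The count in 17A was 2 without any 1 of the 4 WT libraries. In 13A it was 2 without CeA WT 2 or cortex WT 2, 4 without CeA WT 1, 7 without cortex WT 1, 9 without CeA KO 2 and 22 without cortex KO 3. In 7H it was 0 without CeA WT 2 or cortex WT 2, 1 without cortex WT 1, CeA KO 2, CeA KO 3 or cortex KO 2, and 6 without cortex KO 1. Without the 4 libraries at odds with their sex label the counts were 1 in 13A, 1 in 17A and 0 in 7H.

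The direction by region was often not the same in the 2 kinds of nuclei, which share no library here. Of windows called in both, 7 were higher in CeA in both, 15 lower in both, 20 higher in SOM+ but lower in bulk nuclei, and 12 the reverse. These counts were not made over all windows, so they do not set Zfp windows apart. They rest on the bulk calls, which depend on single libraries as given above. Across the 371 Zfp windows Pearson's r between the 2 differences was -0.12, and across 25101 windows of all kinds 0.01, given as a description since windows are not independent.

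**Figure D5:**
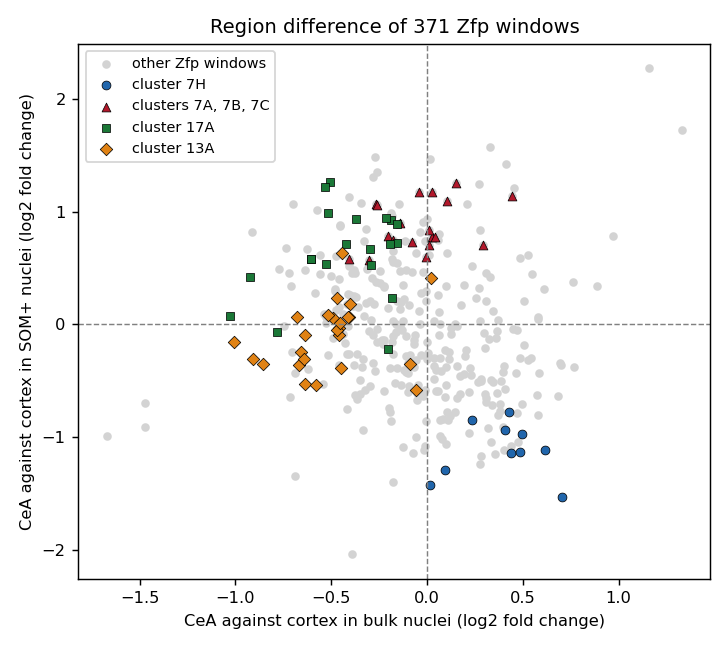
Log2 difference of CeA against cortex in bulk nuclei (x axis) and in SOM+ nuclei (y axis), 1 point for each of 371 Zfp windows, with clusters 7H, 7A to 7C, 17A and 13A in colour. The points form no diagonal (Pearson's r -0.12). Of windows called in both, 7 lie to the upper right, 15 to the lower left, 20 to the upper left and 12 to the lower right. The bulk calls behind these counts depend on single libraries.

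The difference between the regions of the SOM+ against bulk difference was tested directly, with SOM+ control and bulk WT libraries. It was called higher in CeA at 70 Zfp windows and lower at 60, where all windows gave 9.46% and 15.2%. With cyclic loess 106 were higher and 53 lower, and without the 4 libraries at odds with their sex label 36 and 28. Over single libraries left out the higher count ran from 39 (without cortex SOM+ control 1) to 60. The lower count ran from 39 (without cortex SOM+ control 2) to 60. The higher count was also under 47 without CeA SOM+ control 2 (45), CeA WT 1 (46), CeA WT 2 (45) or cortex WT 2 (41).

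In 7H all 10 windows were called, with a median of -1.51. There SOM+ stood above bulk nuclei by a median of 2.20 in cortex, with all 10 called, and by 0.52 in CeA, with 4 called (2 without CeA WT 1). In 17A 16 of 20 were called the other way (1.31): the median was 0.95 in CeA, with 14 higher, and -0.16 in cortex, with 1 higher and 6 lower. Cluster 7C (6 of 7, 1.15) and 7B (5 of 6, 1.04) followed 17A. In 7F (5 of 15, -0.67) and 7E (4 of 7, -1.11) the calls went the way of 7H. With single libraries left out, 8 to 10 windows were called in 7H. In 17A the count was 8 without CeA SOM+ control 1, 9 without CeA WT 2 or cortex WT 2 and 10 without cortex SOM+ control 1. In 7C it was 3 without CeA WT 2. In 7B it was 2 without CeA SOM+ control 2, CeA WT 1 or cortex WT 2 and 3 without cortex SOM+ control 1, cortex SOM+ control 2 or CeA WT 2. In 7F it was 3 without CeA SOM+ control 2, cortex SOM+ control 2, CeA WT 2 or cortex WT 2, and in 7E it was 2 or fewer without any 1 library, and 0 without either SOM+ control 2. Without the 4 libraries at odds with their sex label, 7 windows were called in 7H, 9 in 17A, 5 in 7C, 2 in 7B, 4 in 7F and 2 in 7E.

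Among single windows, Zfp768 had the largest such difference in size of those named, -2.45 (SE 0.31, adjusted p = 1.3e-06). It measured 22.1, 22 and 15.4 CPM in cortex KO and 23.4 and 12.7 CPM in cortex WT libraries, far under the 104 to 115 CPM of cortex SOM+ nuclei. In CeA bulk libraries it measured 26.0, 29.1, 31.3, 35.3 and 28.8 CPM, close to the 32.3 to 41.8 CPM of CeA SOM+ nuclei. Zfp804b (chromosome 5, 7343379 to 7345378), a brain gene related to Zfp804a, differed by 2.06 (SE 0.40). It measured 46.2 and 29.1 CPM in CeA and 20 and 13.8 CPM in cortex SOM+ control libraries, and 30.6, 49.4, 56.5 and 95.6 CPM in the bulk WT libraries of CeA and cortex. SOM+ and bulk thus overlapped in CeA and were apart in cortex. Zfp300 (1.97), Zfp40 (1.85) and Zfp939 (1.63) went the same way as Zfp804b, and Zfp346 (-1.67), Zfp771 (-1.73) and Zfp593 (-1.69) the same way as Zfp768.

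Fear conditioning left no Zfp promoter called in either region. In CeA SOM+ nuclei 0 of 371 passed (all windows 0.0%), with a median of -0.01, and 5 had an unadjusted p under 0.05 (1.35%, all windows 2.38%). In cortex SOM+ nuclei 0 passed (all windows 0.0%), with a median of 0.01, and 3 had an unadjusted p under 0.05 (0.809%, all windows 1.14%). DESeq2 called 0 as well in both. The smallest p in CeA was that of Zfp808, with 7.15 and 6.20 CPM in control and 13.2 and 12.2 CPM in fear-conditioned libraries (log2 difference 0.94, SE 0.31, unadjusted p = 0.00268, adjusted p = 1.0). Zfp385c (-0.88) and Zfp518b (0.50) came next. In cortex Zfp758 and Zfp944, whose windows overlap and share reads, came first, Zfp758 with 11 and 8.62 CPM in control and 15.5 and 15.9 CPM in fear-conditioned libraries (0.69, SE 0.26, adjusted p = 1.0). Zfp760 (0.48) followed. With 2 libraries a group, differences of this size could not be told from the spread.

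Erbb4 KO in SOM+ cells left no Zfp promoter called in bulk nuclei either. In CeA 0 of 371 passed (all windows 0.0%), with a median of 0.04, and 5 had an unadjusted p under 0.05 (1.35%, all windows 2.96%). In cortex 0 passed (all windows 0.0%), with a median of -0.06, and 6 had an unadjusted p under 0.05 (1.62%, all windows 3.27%). DESeq2 called 0 in both. Without the sex term edgeR also called 0 in both, with medians of 0.12 in CeA and 0.01 in cortex. Without the 4 libraries at odds with their sex label the medians were 0.04 in CeA and -0.03 in cortex. That fit has WT 2 as the only WT library of a region, so it cannot decide whether a window differs. In CeA, Zfp148, a binder of GC-rich promoters, measured 70.0, 80.1 and 74.9 CPM in KO against 56.7 and 55.4 CPM in WT libraries (0.45, SE 0.20, adjusted p = 0.999). Zfp27 (0.67) and the third Zfp385b window (-0.60) had smaller p, but their KO and WT libraries overlapped. In cortex, Zfp566 measured 57.4, 44.4 and 41.6 CPM in KO against 35.8 and 33.8 CPM in WT libraries (0.53, SE 0.22, adjusted p = 0.945), and Zfp239 (-0.56) and Zfp825 (-0.69) overlapped.

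The cortex KO result depends on 1 library. Zfp825 measured 46.1, 57.9 and 117 CPM in KO 1, 2 and 3 and 84.0 and 120 CPM in WT libraries, so KO 3 stood with the WT libraries. Without KO 3, 14 of 371 Zfp windows were called, all lower in KO. This share is close to the 3.91% of all windows called in either direction. The 14 windows include Zfp825 (-1.18), Zfp521, Zfp804b and Zfp189, named after their values were seen. Of the cortex libraries left in this fit, KO 2 and WT 1 go against their labelled sex, and the sex term sets WT 1 apart from WT 2. KO 1 and KO 3 also differed most of all replicate pairs in a group, with a chi-square per degree of freedom of 14.75 against 3.3 to 8.55 in the other pairs.

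Zfp promoters were also described by their sequence. Of the 367 gene names 300 were found in the RefSeq promoter table, with 367 promoters of 300 bases, against 32851 promoters of all genes. Zfp promoters had a median of 55.3% G and C and 15 CpG sites, against 52.7% and 7 in all promoters. CCAAT lay in 44.1% (all promoters 37.4%), GGGCGG in 44.1% (35.7%), CCGGAAGT in 10.4% (3.89%) and AAGATGGC in 5.18% (2.75%). GCGCATGC lay in 5.45% (2.71%), ACTACAAT in 3.81% (0.737%) and TGACGTCA in 4.09% (1.79%), and TATAAA in 7.36% (13.6%). Across 238 Zfp windows the correlation of GC content with the SOM+ against bulk difference was -0.23, where across 14060 windows of all kinds it was 0.42. With the CeA against cortex difference in SOM+ nuclei it was -0.14 and, across 14000 windows, -0.47. Clusters differed in composition, with a median of 47.7% G and C in 13A and 47.0% in 17B, against 66.7% in 6A and 60.7% in 7H.

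The letters ACATTTCCC lay in 33 Zfp promoters (8.99%) and in 282 of all promoters (0.858%), so 11.7% of the promoters that hold them are Zfp promoters. Among genes with 1 promoter the share was 20% in clusters and 2.68% outside. By cluster, the genes with these letters have 12 windows in 13A, 9 in 7F, 4 in 7D, 3 in 11A, 2 in 7E and 5 outside clusters. The letters were picked from the promoters with the smallest p in SOM+ against bulk nuclei, after several spellings were tried, so what follows is a description that tests nothing. Among genes with 1 window, the median SOM+ against bulk difference was 1.39 at 31 Zfp windows with the letters and 0.56 at 253 without. Over windows of all kinds it was 0.38 at 198 with and -0.06 at 15654 without. Cluster 11A has the letters at 3 of its windows and none called, and 17B, with all 11 called, has them at none.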

How the data were processed

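The deposited table holds whole-number read counts per promoter window for each library, not normalized, which the authors made before deposit. Per the submitters' processing notes, bcl2fastq 2.16.0.10, Trimmomatic 0.32, Bowtie2, Picard 1.88, MACS2 and the build mm9 were used. For the counting program, Tn5 offset, strand and duplicates the setting is not given in the sources used here. Of 26728 entries, 663 repeats of a window were left out. Promoter counts per library ran from 2648959 to 14668694.

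Libraries were scaled by TMM and low windows removed by filterByExpr (minimum count 10). Windows were tested with edgeR 4.0.16 (R 4.3.3, quasi-likelihood F test, two-sided), with Benjamini-Hochberg adjustment over all windows and a threshold of 0.05. SOM+ against bulk comparisons used all 18 libraries with labelled sex as a term, region and fear comparisons within SOM+ nuclei the 8 SOM+ libraries, and region and KO comparisons within bulk nuclei the 10 bulk libraries with sex. All KO libraries are labelled male, and the only bulk libraries labelled female are CeA WT 1 and cortex WT 1, which have Y-linked counts. In the bulk fit the sex term therefore sets WT 1 apart from WT 2 and weighs on each KO against WT difference. The log2 differences by edgeR use its default prior count. A prior count of 2 was used for the log2 levels of the cyclic loess setting and of the comparison of same-numbered libraries. The fit was tested on simulated data.

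Named were up to 6 called windows per direction with the smallest p whose libraries did not overlap (up to 4 in the interaction, regardless of overlap, and the 3 smallest p where none was called). Also named were extremes of level by cluster and over all windows of the set, and the members of 3 lists by role. The members and lists were chosen with earlier results of these data known. Alternatives were DESeq2 1.42.0, RLE, total count and cyclic loess (limma 3.58.1) scaling, no filter, a replicate block, no sex term, no overlapping windows, a 250 kb gap, and leaving out each library. Sex by Y-linked counts and leaving out 4 libraries were added after seeing the data.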

Additional observations from a re-analysis of the deposited data

Results flagged for a closer look

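At 22 of the named windows the SOM+ against bulk difference was not the same in the 2 regions, by the test of the difference itself (edgeR, adjusted p under 0.05). Values are CeA minus cortex, on the log2 scale. In 7H the difference was smaller in CeA at Zfp768 (-2.45), Zfp771 (-1.73), Zfp764 (-1.72) and Zfp688 (-1.45). Outside 7H it was smaller in CeA at Zfp872 (-1.84), Zfp593 (-1.69), Zfp346 (-1.67), Zfp664 (-1.56), Zfp105 (-1.30) and Zfp652os (-0.94). It was larger in CeA at the 17A members Zfp40 (1.85), Zfp760 (1.53) and Zfp54 (1.36), and at Zfp758 (1.43) and Zfp944 (1.47), whose windows overlap. It was also larger at the X-linked Zfp300 (1.97) and Zfp182 (1.76), and at Zfp804b (2.06), Zfp939 (1.63), Zfp703 (1.11), Zfp825 (1.06) and Zfp329 (1.05). Zfp300, Zfp40, Zfp804b, Zfp939, Zfp768, Zfp346, Zfp771 and Zfp593 were named because this same test called them, so their passing was fixed in advance. The others were named by comparisons that share libraries with it. The count of 22 is therefore a description. Over all windows the test called 9.46% higher in CeA and 15.2% lower. Groups of 2 or 3 libraries are too small for a test of single libraries.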

How the results depend on the processing

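Values are numbers of Zfp windows called. In SOM+ against bulk nuclei the lower count rose from 50 to 78 with total counts and 82 with cyclic loess. In CeA alone the lower count of 16 became 25 and 29 under these scalings and 6 without the 4 libraries at odds with their sex label, which also took the higher count from 163 to 95, and it was 6 to 7 with single libraries left out. In cortex the lower count rose from 68 to 106 with cyclic loess. For the difference between regions, the higher count of 70 became 106 with cyclic loess and 36 without the 4 libraries, and the lower count of 60 became 28 without them. Both ran from 39 to 60 with single libraries left out. For CeA against cortex in SOM+ nuclei the lower count fell from 126 to 81 with cyclic loess. In bulk nuclei the counts of 27 and 59 became 2 and 5 without the 4 libraries and ran from 5 to 47 and from 9 to 91 with single libraries left out. For cortex KO the count of 0 ran from 0 to 14. With sex by Y-linked counts in place of labelled sex, 213 were higher and 39 lower in SOM+ against bulk nuclei. By region in bulk nuclei 21 were higher and 49 lower. For KO 0 were called in both regions, with median log2 differences of 0.14 in CeA and 0.05 in cortex. The cause of these changes was not tested.

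With the replicate number as a block the counts were 216 higher and 52 lower for SOM+ against bulk, 170 and 17 in CeA, 175 and 72 in cortex, 77 and 62 for the difference between regions, 103 and 135 for region in SOM+ and 27 and 64 in bulk nuclei, and 0 for fear and KO. Same-numbered libraries had correlations of deviations from -0.366 to 0.406, and not every pair exceeded 0.1, so the numbers were not taken to pair them. Between regions the correlation was 0.38 for WT 1 and for WT 2, -0.193, 0.263 and 0.02 for KO 1 to 3, 0.129 in SOM+ control and 0.043 in SOM+ fear libraries, where the number is also the labelled sex. In groups of 2 libraries the deviations mirror each other, so both numbers give the same value by construction. The block also joins KO with WT and control with fear libraries, so it does not test a pairing of the regions alone. KO 2 lacked and WT 1 had Y-linked counts in both regions. Among counts over all settings other than leaving out a library, 136 stayed within 1.5 times and 13 did not, and with single libraries left out 77 did and 25 did not. For single named windows 444 values kept direction and call and 6 lost the call. With single libraries left out 422 kept both, 7 lost the call and 1 gained it, and 0 turned sign. Depth limits the lowest windows, and 9 of 380 were not tested.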
